A study of Mus musculus with 16 samples.

Results

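The genes described here are 8 mouse genes of the intestinal mucus: *Muc2*, *Fcgbp*, *Clca1*, *Zg16*, *Agr2*, *Spink4*, *Tff3* and *Muc13*. They were chosen by name and are 8 of the 24421 genes listed in a pair of single-cell count matrices, 1 for wild-type (WT) and 1 for ROBO-Crainbow (ROBO) mice. The tissue was crypt-enriched small intestine of untreated outbred mice at postnatal day 16, with 8 labelled samples per genotype. ROBO mice carry a Cre-switched cassette in which a recombined cell expresses human RSPO3 or 1 of a pair of PTPRK:RSPO3 fusions, each with its own fluorescent protein. In the mice of the single-cell experiment a *Villin* promoter drove Cre in the developing intestinal epithelium. The WT mice were the controls and were untreated as well. The transgenes were not examined here. The columns of the matrices carry the genotype and a number, with no barcode and no sample, so each genotype was 1 pooled sample. Cells are not replicates, no test between genotypes was made, and intervals are 95% intervals that cover counting error only.

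Goblet cells are secretory cells of the gut epithelium that fill granules with mucus and release it onto the surface. The gel is built of the secreted mucin Muc2, which is folded and cross-linked in the endoplasmic reticulum with the help of the disulfide isomerase Agr2 and heavily glycosylated in the Golgi. Fcgbp, Clca1 and Zg16 are secreted into the same gel, where Fcgbp is bound to mucin, Clca1 is a metalloprotease that acts on the mucus, and Zg16 is a lectin that binds bacteria. Tff3 is a trefoil peptide of mucosal repair and Spink4 a Kazal-type peptide of secretory cells, whereas Muc13 is a membrane mucin of the surface of enterocytes.

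The positions of all 8 genes were taken from a RefSeq table of GRCm38.p6, and the labels name mm10 and GRCm38. *Fcgbp* (28071236 to 28120864), *Zg16* (127050156 to 127052675) and *Muc2* (141690340 to 141754691) lie on chromosome 7. *Clca1* lies on chromosome 3, *Spink4* on 4, *Agr2* on 12, *Muc13* on 16 and *Tff3* on 17. The RefSeq table of promoter sequences matched 4 of the 8 genes, *Muc2*, *Fcgbp*, *Agr2* and *Muc13*. Only these 4 had a match, and their sequences are shown for that reason and not for their levels. Each runs from 250 bases before to 50 bases after the gene's start on the plus strand. *Muc2* is at chr7:141690090-141690389, *Fcgbp* at chr7:28070986-28071285, *Agr2* at chr12:35992675-35992974 and *Muc13* at chr16:33793787-33794086. Capitals mark the E-box CAGCTG, a class of site bound by basic helix-loop-helix factors, the letters TATAAA, and CATAAA, which reads TTTATG on the other strand, the core of sites for CDX factors.

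Muc2: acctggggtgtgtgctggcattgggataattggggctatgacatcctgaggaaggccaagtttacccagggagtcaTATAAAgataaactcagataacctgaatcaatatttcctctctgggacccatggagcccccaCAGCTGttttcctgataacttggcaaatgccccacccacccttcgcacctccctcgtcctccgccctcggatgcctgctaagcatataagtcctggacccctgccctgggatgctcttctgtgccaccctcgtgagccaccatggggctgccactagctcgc
Fcgbp: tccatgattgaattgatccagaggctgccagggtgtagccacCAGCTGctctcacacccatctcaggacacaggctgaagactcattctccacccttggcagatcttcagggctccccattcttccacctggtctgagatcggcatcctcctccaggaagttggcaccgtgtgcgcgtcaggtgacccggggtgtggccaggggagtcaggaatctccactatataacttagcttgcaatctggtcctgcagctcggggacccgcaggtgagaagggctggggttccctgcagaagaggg
Agr2: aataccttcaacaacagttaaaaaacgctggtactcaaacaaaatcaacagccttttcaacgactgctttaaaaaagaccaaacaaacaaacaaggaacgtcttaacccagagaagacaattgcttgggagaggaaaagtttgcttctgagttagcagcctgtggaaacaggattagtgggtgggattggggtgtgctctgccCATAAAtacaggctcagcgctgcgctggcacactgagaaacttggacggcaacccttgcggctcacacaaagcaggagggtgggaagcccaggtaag
Muc13: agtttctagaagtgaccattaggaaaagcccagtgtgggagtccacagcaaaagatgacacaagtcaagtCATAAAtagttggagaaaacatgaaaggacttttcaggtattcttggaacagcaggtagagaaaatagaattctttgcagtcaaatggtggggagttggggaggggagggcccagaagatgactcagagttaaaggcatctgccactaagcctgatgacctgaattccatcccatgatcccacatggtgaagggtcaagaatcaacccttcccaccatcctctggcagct

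CAGCTG was found in the promoters of *Muc2*, at -112 from the start, and *Fcgbp*, at -208, and in 16.3% of the 32851 mouse promoters of the same length. TTTATG was found in those of *Agr2*, at -47, and *Muc13*, at -180, and in 11.9% of all promoters. *Muc2* also held TATAAA, at -174, as did 13.6% of all promoters. TGTTTAC, the core of forkhead sites, had no match in these 4 windows and was found in 3.65% of all promoters. Both strands were searched, CAGCTG reads the same on both, and no marked motif overlapped another. A match is a description of the letters and not a binding site.

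Over 1348 cells the WT matrix sums to 2682127 UMIs, and that of ROBO sums to 2428435 over 1249 cells. A UMI is a unique molecular identifier, so a count is a number of captured 3′ ends, 1 per molecule whatever the length of the transcript, and levels of different genes are compared as molecules. The median total per cell was 1492 UMIs in WT and 1610 in ROBO. The columns fall into runs within which the total falls from each cell to the next, 5 runs in WT and 8 in ROBO. No label says what a run is, and the runs are described without calling them samples. They split by the level of *Sis*, the sucrase-isomaltase of enterocytes: WT runs 1 and 5 and ROBO runs 6, 7 and 8 had 3.86 to 5.46 UMIs of *Sis* per 10000 UMIs, and the other 8 runs had at most 0.188. The runs with *Sis* had *Lct*, the lactase gene, at 3.29 to 7.98 per 10000 and the antimicrobial lectin gene *Reg3b* at 0.559 to 1.24, against 14.1 to 20.2 and 6.51 to 16.9 in the others. Runs with *Sis* made up 43.0% of the WT and 33.5% of the ROBO cells. Most of the mucus genes also differed between these sets of runs, so values are given for each set.

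A goblet-type cell was defined as one with at least 2 UMIs of each of at least 3 of the 7 genes other than *Muc13*. WT had 56 such cells (4.15%, exact 95% interval 3.15 to 5.36%) and ROBO had 52 (4.16%, 3.12 to 5.42%). The difference was 0.00903 percentage points, with a Newcombe interval from -1.54 to 1.58. The rule also let in cells rich in Paneth genes, 13 in WT and 6 in ROBO, which are described below. Without those cells the difference was 0.493 points (-0.919 to 1.94). After every cell was thinned to 912 UMIs, 3.66% of WT and 3.42% of ROBO cells passed, with 364 WT and 285 ROBO cells left out as too shallow. Just outside the rule, with 2 genes, were 32 WT and 26 ROBO cells with a median of 7 and 6.5 UMIs of the 7 genes. Just inside, with 3 genes, were 18 and 19 cells with a median of 16.5 and 21 UMIs. All 7 genes were present at this level in 10 WT and 6 ROBO cells.

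In runs with *Sis*, goblet-type cells were 42 of 580 in WT (7.24%, 5.27 to 9.66%) and 36 of 419 in ROBO (8.59%, 6.09 to 11.7%), a difference of 1.35 points (-1.99 to 4.93). In the other runs they were 14 of 768 (1.82%, 1.00 to 3.04%) and 16 of 830 (1.93%, 1.11 to 3.11%), a difference of 0.105 points (-1.32 to 1.49). By single run the share was 6.67 and 7.42% in the 2 WT runs with *Sis*, 6.81, 8.73 and 11.8% in the 3 ROBO runs with *Sis*, and between 0.844 and 3.64% in the other 8. Every run with *Sis* thus stood above every other run. Without WT run 5, which held 33 of the 56 WT goblet-type cells, the difference between the genotypes became 1.62 points (0.0345 to 3.13). That left WT run 1, with 135 cells, as the only WT run with *Sis*, against 3 in ROBO.

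The cells were checked against goblet genes that the rule did not use. Of 12 further goblet markers, 11 had UMIs in these cells in each genotype, and the colonic resistin-like gene *Retnlb* was at 0. Their summed level was 31.2 per 10000 in WT and 28.3 in ROBO goblet-type cells, against 1.38 and 1.13 in all other cells. In a clustering built without the 8 genes, 41 of the 56 WT and 36 of the 52 ROBO goblet-type cells fell in 1 secretory-like cluster, which had 60 cells of each genotype and was also led by Paneth genes. Of the other 15 WT cells, 9 were bottom enterocyte-like, 3 stem cell-like and 3 transiently amplifying-like. Of the other 16 ROBO cells, 11 were bottom enterocyte-like, 4 stem cell-like and 1 immune-like. No goblet-type cell was called a doublet. Markers of immune and tuft cells were low in them. Of 15 immune markers, 1 had a UMI in the WT cells and 3 in the ROBO cells, with a summed level of 0.0729 and 0.429 per 10000 and at most 2 UMIs in any cell. Of 6 tuft markers in the matrices, none had a UMI in WT and 1 in ROBO. Of 12 enteroendocrine markers, 3 were detected in the WT cells and 5 in the ROBO cells, with *Pyy*, *Gcg*, *Sst*, *Tph1*, *Tac1* and *Neurod1* at 0 in both. The summed enteroendocrine level was 3.65 per 10000 in WT and 3.26 in ROBO goblet-type cells, against 5.91 and 8.42 in other cells. Markers of crypt epithelium were not low: the bottom enterocyte list was at 65.7 per 10000 in WT and 66.1 in ROBO goblet-type cells, against 64.8 and 64.3 in other cells. The transiently amplifying list was at 16.6 and 14.4, against 16.2 and 15.3, and the stem cell list at 8.61 and 14.8, against 16.2 and 16.6. The 13 Paneth markers were far higher than in other cells. Their summed level was 393 per 10000 in WT (0 to 1531 UMIs per cell, median 4) and 139 in ROBO (0 to 812, median 1.5), against 6.25 and 12.0 in other cells, with *Defa5* at 0 in ROBO goblet-type cells.

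**Figure D1:**
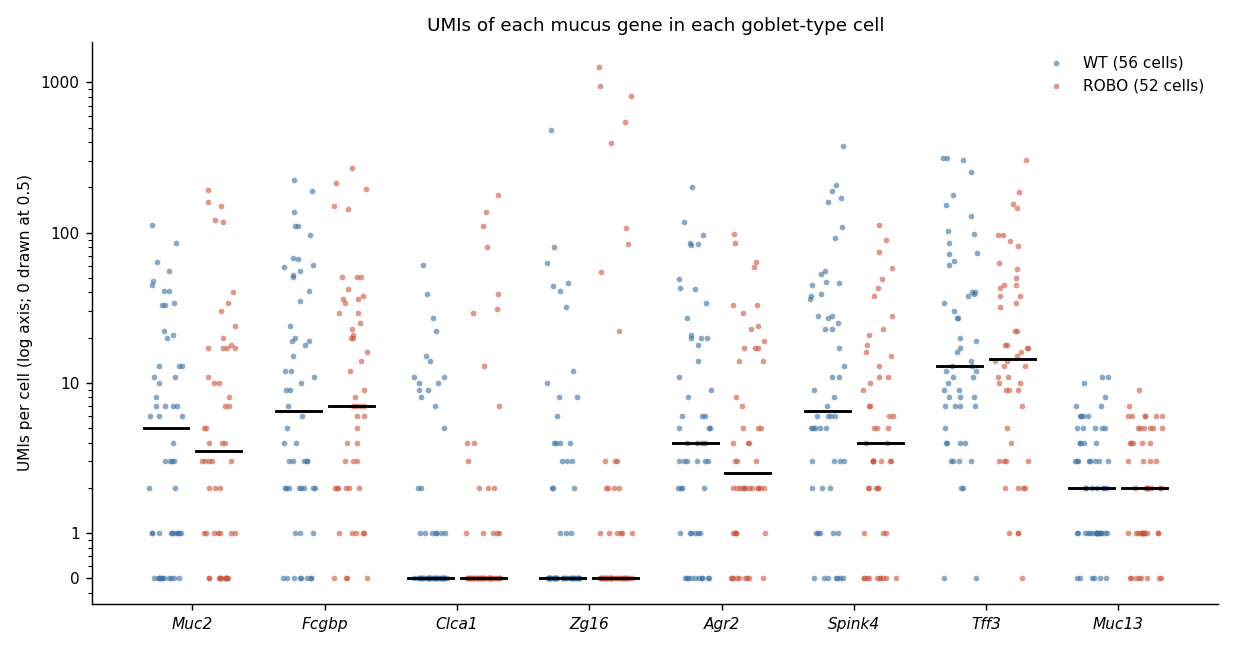
UMIs of each of the 8 genes (log axis, 0 drawn at 0.5) in every goblet-type cell, with 56 WT cells in blue and 52 ROBO cells in red; black bars are medians. *Zg16* and *Clca1* have a median of 0 in both genotypes and reach 1263 and 177 UMIs in single ROBO cells, and *Muc13* stays at or below 11 UMIs.

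*Muc2*, the gel-forming mucin, was counted 893 times in WT and 1179 times in ROBO, or 3.33 (3.11 to 3.55) and 4.85 (4.58 to 5.14) per 10000 UMIs. Producing cells, those with at least 5 UMIs, numbered 30 in WT (2.23%) and 24 in ROBO (1.92%), a difference of -0.304 points (-1.43 to 0.831). The median producing cell held 13 UMIs in WT, where the highest had 112, and 17 in ROBO, where the highest had 191. The top 5 cells held 41.0% of all *Muc2* UMIs in WT and 62.7% in ROBO. The runs with *Sis* had 1.76 and 7.67 per 10000 in WT and 9.35, 7.12 and 14.5 in ROBO, and the other runs 0.124 to 1.31.

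*Fcgbp*, the IgG Fc-binding protein of mucus, was at 6.51 (6.21 to 6.83) per 10000 in WT and 7.05 (6.72 to 7.39) in ROBO. It had 34 producing cells in WT and 35 in ROBO, with medians of 19.5 and 21 UMIs and maxima of 223 and 269. Its level by run was 4.26 and 15.5 in WT runs with *Sis*, 16.9, 10.1 and 16.2 in ROBO runs with *Sis*, and 0.249 to 2.39 elsewhere. WT run 5 and the ROBO runs thus overlapped for *Fcgbp*.

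*Clca1*, listed in the matrices beside *Clca3a1*, *Clca3a2* and *Clca3b* and formerly named *Clca3* or gob-5, was the least abundant of the 8 genes. It was counted 292 times in WT and 681 times in ROBO, at 1.09 (0.967 to 1.22) and 2.80 (2.60 to 3.02) per 10000. The number of producing cells went the other way, with 15 in WT and 9 in ROBO, a difference of -0.392 points (-1.18 to 0.386). Those cells held a median of 11 UMIs in WT, 61 at most, and 39 in ROBO, 177 at most. The 5 top cells held 56.2% of its UMIs in WT and 80.0% in ROBO. All its UMIs were in runs with *Sis*, at 0.985 and 2.71 per 10000 in WT and 7.79, 3.50 and 7.25 in ROBO. In each of the other 8 runs it was at 0 UMIs, which allows up to 0.0611 to 0.153 per 10000, and the 14 WT and 16 ROBO goblet-type cells of those runs held none.

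*Zg16*, the zymogen granule lectin, showed the widest range of the 8. It was counted 962 times in WT, 3.59 (3.36 to 3.82) per 10000, and 4414 times in ROBO, 18.2 (17.6 to 18.7) per 10000. Producing cells were nearly the same in number, 12 in WT (0.890%) and 10 in ROBO (0.801%), a difference of -0.0896 points (-0.843 to 0.678). The median producing cell held 36.5 UMIs in WT and 252 in ROBO. In ROBO 5 cells stood apart with 1263, 952, 812, 546 and 397 UMIs, followed by cells with 107 and 84. In WT 1 cell had 485 UMIs and the next 80, 63 and 46. In the top ROBO cell *Zg16* was 30.8% of all its 4097 UMIs, and in the top WT cell 21.8% of 2220. The top 5 cells held 74.6% of *Zg16* UMIs in WT and 89.9% in ROBO, and a single cell held 50.4% in WT. The 5 ROBO cells came from 3 runs, with 2 in run 6, 1 in run 7 and 2 in run 8.

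By run, *Zg16* was at 2.74 and 9.01 per 10000 in the WT runs with *Sis* and at 40.2, 28.0 and 56.0 in the ROBO runs with *Sis*, which did not overlap. In the other runs it was at 0 to 0.204 per 10000, with 12 UMIs over the 3 WT runs and 3 UMIs over the 5 ROBO runs. Of those 12 UMIs, 10 were in WT run 2, which held the 1 producing cell of these runs.

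*Agr2*, whose product assists mucin folding, was at 4.47 (4.22 to 4.73) per 10000 in WT and 2.94 (2.73 to 3.16) in ROBO. It had 28 producing cells in WT, with a median of 20 and a maximum of 201 UMIs, and 20 in ROBO, with 18 and 98. Its runs with *Sis* were at 3.30 and 9.71 in WT and at 6.55, 3.89 and 6.76 in ROBO, so that the ROBO runs lay between the 2 WT runs. The other runs were at 0.286 to 2.26.

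*Spink4* was at 8.17 (7.83 to 8.51) per 10000 in WT and 4.01 (3.77 to 4.28) in ROBO. It had 38 producing cells in WT, with a median of 24 and a maximum of 375 UMIs, and 33 in ROBO, with 11 and 112. The higher WT level was that of 1 run: run 5 was at 19.4 and the other 4 WT runs at 1.33 to 3.00, while the 8 ROBO runs were at 1.32 to 9.87. *Spink4* was the only gene of the 7 whose highest ROBO run, run 3 at 9.87, was not a run with *Sis*.

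*Tff3* was the most abundant of the 7 goblet genes in WT, at 12.0 (11.5 to 12.4) per 10000 against 9.38 (9.003 to 9.778) in ROBO. It was produced by 59 WT and 51 ROBO cells, the most of the 7, with medians of 14 and 17 UMIs and maxima of 312 and 303. Of its producing cells, 74.6% in WT and 76.5% in ROBO were goblet-type. By run it was at 5.11 and 27.8 in WT and 15.6, 12.2 and 26.6 in ROBO for runs with *Sis*, and at 1.24 to 4.44 in the others, so that the genotypes overlapped.

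*Muc13*, the membrane mucin, was not concentrated in few cells as the other 7 genes were. It was present in 76.9% of WT and 78.9% of ROBO cells, at 14.2 (13.8 to 14.7) and 14.2 (13.7 to 14.6) per 10000. It had 292 producing cells in WT and 247 in ROBO, with medians of only 7 and 6 UMIs and maxima of 32 and 25. The top 5 cells held 3.31 and 3.35% of its UMIs, and 213 cells in each genotype were needed to reach 50% of them, against 1 to 8 cells for the other genes. Its level was lower in runs with *Sis*, at 8.96 to 13.7 per 10000, than in the others, at 14.2 to 17.6. The other genes except *Spink4* had the opposite order, and the runs overlapped for *Spink4*.

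**Figure D2:**
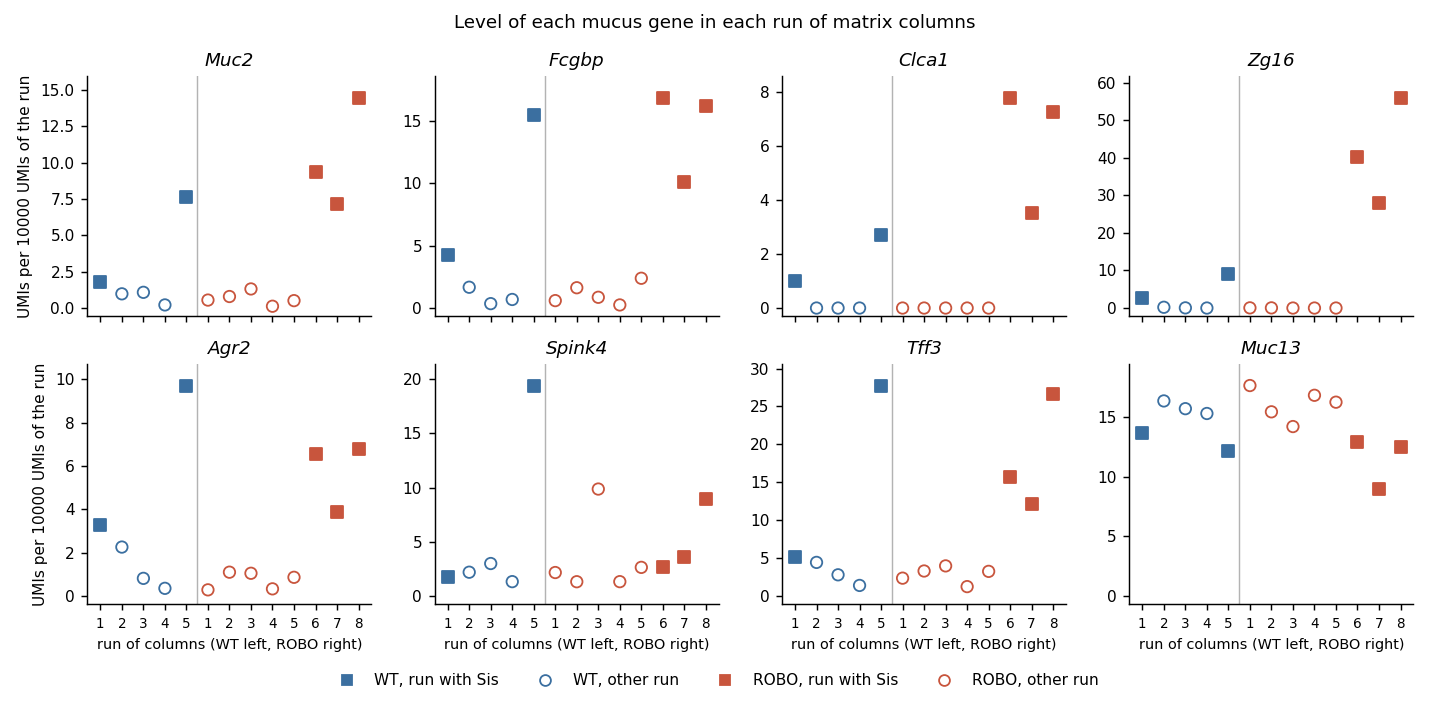
Level of each gene in UMIs per 10000 UMIs of the run (linear axes, a scale for each gene) for the 5 WT runs (blue, left of the line) and the 8 ROBO runs (red); filled squares are runs with *Sis*, open circles the other runs. *Zg16* reaches 28.0 to 56.0 in the 3 ROBO squares and 2.74 and 9.01 in the 2 WT squares, *Spink4* is highest in WT run 5 at 19.4, and *Muc13* is lowest in the squares.

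Over all cells, the log2 ratio of ROBO over WT was 2.34 for *Zg16* (counting interval 2.24 to 2.44), 1.37 for *Clca1* (1.17 to 1.57) and 0.54 for *Muc2* (0.42 to 0.67). It was 0.11 for *Fcgbp* and -0.0057 for *Muc13*. It was -0.35 for *Tff3*, -0.61 for *Agr2* and -1.02 for *Spink4* (-1.13 to -0.91). At least 2-fold higher in ROBO were 2 of the 8 genes, *Zg16* and *Clca1*, against 0.419% of the 9071 genes with at least 50 UMIs. At least 2-fold lower was 1 of the 8, *Spink4*, against 0.463%. The median log2 ratio was 0.05 over the 8 genes and 0.0034 over all genes compared. These genes were chosen with their ratios known, so the counts describe them and are no evidence beyond these libraries.

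Within goblet-type cells the ratios had the same order: 2.53 for *Zg16* (63.4 against 365 per 10000), 1.5 for *Clca1* (19.6 against 55.5), 0.64 for *Muc2* (59.2 against 92.3), 0.25 for *Fcgbp*, -0.041 for *Muc13*, -0.30 for *Tff3*, -0.56 for *Agr2* and -1.21 for *Spink4* (143 against 61.9). Again 2 of the 8 were at least 2-fold higher, against 1.45% of 828 genes, and 1 at least 2-fold lower, against 4.35%. In runs with *Sis* the counts were again 2 higher and 1 lower, against 1.17 and 1.71% of 7235 genes, with *Zg16* at 2.50 and *Spink4* at -1.61. In the goblet-type cells of those runs they were 2 and 1, against 2 and 5.23% of 650 genes, with *Zg16* at 2.64 and *Spink4* at -1.75.

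In the other runs none of the 6 genes with enough UMIs reached a 2-fold difference in either direction, against 0.253% of 7514 genes higher and 0.306% lower. There *Spink4* had the opposite sign, at 2.20 per 10000 in WT against 3.46 in ROBO, and its log2 ratio was 0.66 (0.45 to 0.87). *Muc2* was at -0.24 over all cells of these runs and at -1.07 (-1.66 to -0.50) in their goblet-type cells, *Fcgbp* at 0.14, *Agr2* at -0.84, *Tff3* at -0.09 and *Muc13* at 0.04, and *Zg16*, with 12 and 3 UMIs, at -1.98 (-4.45 to -0.09).

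The size of these ratios, and for some genes their sign, depended on a few cells and on 1 run. With the 5 top cells of each gene left out in each genotype, the log2 ratio over all cells became 1.01 for *Zg16*, 0.23 for *Clca1*, -0.12 for *Muc2*, -0.26 for *Fcgbp*, -0.58 for *Agr2*, -0.74 for *Spink4* and -0.27 for *Tff3*. Without WT run 5 every ratio of the 7 goblet genes was positive, at 4.78 for *Zg16*, 3.72 for *Clca1*, 2.30 for *Muc2*, 2.10 for *Fcgbp*, 1.46 for *Tff3*, 0.94 for *Spink4* and 0.84 for *Agr2*. *Muc13* was at -0.12. Run 5, with 445 cells, is 1 of the 2 WT runs with *Sis*, and the other has 135 cells. Leaving run 5 out thus also changed the mix of runs between the genotypes. With every cell given the same weight, *Zg16* was at 1.57, *Clca1* at 0.87 and *Spink4* at -0.89. The direction of *Zg16* held in 20 of the 21 alternatives over all cells, the exception being the runs without *Sis*. It also held in all 24 that gave a ratio over goblet-type cells. In either set 13 alternatives left out 1 run each, so they share most of their cells. In goblet-type cells of the runs without *Sis*, *Zg16* had 10 UMIs in WT and 0 in ROBO, which gives no ratio.

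**Figure D3:**
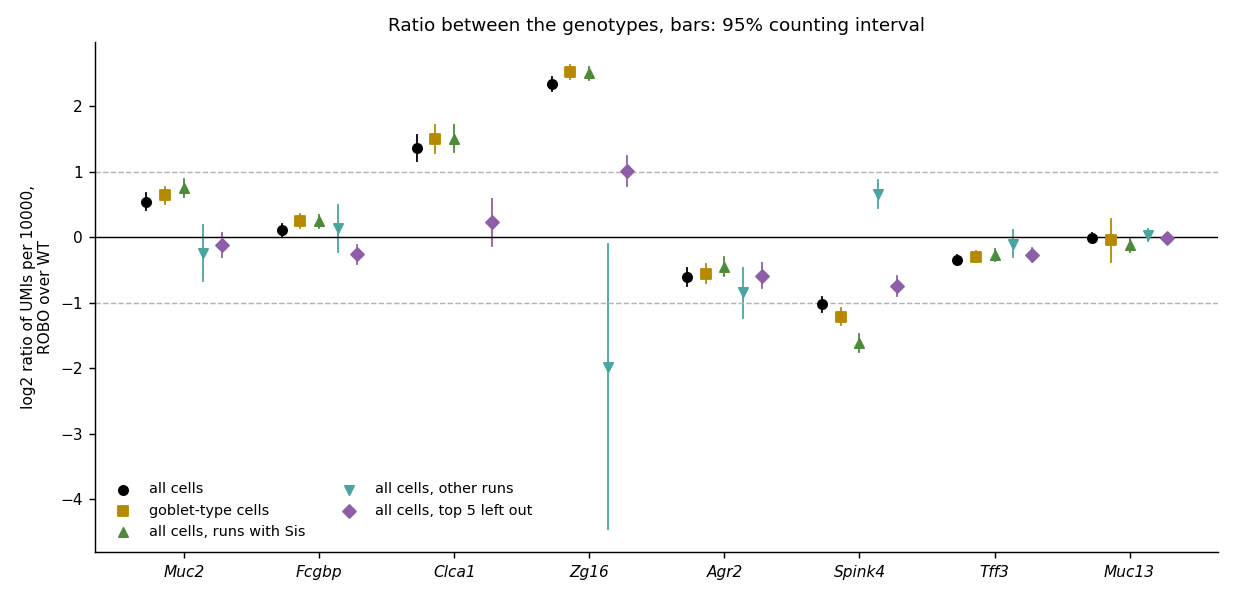
The log2 ratio of ROBO over WT for each gene in 5 sets of cells, with 95% counting intervals as bars and dashed lines at a 2-fold difference. *Zg16* lies between 1.01 and 2.53 in 4 of the 5 sets and at -1.98, from 12 against 3 UMIs, in runs without *Sis*; *Clca1* has no value there, and *Spink4* changes sign in that set.

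For a view of each gene that its own counts did not fix, cells were chosen by the rule of 3 genes among the other members of the 7. Among these cells *Tff3* was detected in 94.9% of 39 WT and 97.2% of 36 ROBO cells, *Fcgbp* in 83.0% of 47 and 90.2% of 41, *Spink4* in 84.4% of 45 and 76.2% of 42, *Agr2* in 79.2% of 48 and 79.5% of 44, and *Muc2* in 78.4% of 51 and 75.6% of 45. *Clca1* was found in only 41.8% of 55 and 37.3% of 51 cells, and *Zg16* in 41.5% of 53 and 37.5% of 48. The chosen cells come from both sets of runs. In runs without *Sis*, *Clca1* had 0 UMIs and *Zg16* had 12 in WT and 3 in ROBO. The shares of these 2 genes are thus not those of runs with *Sis* alone. Among other cells a UMI of the 7 genes was seen in between 1.47 and 20.9% in WT and between 2.84 and 17.7% in ROBO, at median totals of 1469 to 1480 and 1587 to 1596 UMIs, against 1803 to 1987 and 2116 to 2252 in the chosen cells. For *Zg16* and *Clca1* the level in the chosen cells of both sets of runs therefore came from fewer of them than for the other genes. *Muc13*, which was not part of the rule, was at 12.6 per 10000 in WT and 12.3 in ROBO goblet-type cells, 0.883 and 0.861 times its level in other cells.

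With 5 UMIs asked of the producing gene and 2 of the other, the overlap among producing cells depended on the pair of genes and its direction. All 24 cells that produced *Clca1* held at least 2 UMIs of *Muc2* and of *Fcgbp*, and 91.7% held *Zg16*. Of the 54 cells producing *Muc2*, 90.7% held *Fcgbp*, 90.7% *Tff3* and 79.6% *Agr2*, but 55.6% held *Zg16* and 53.7% *Clca1*. Of the 69 producing *Fcgbp*, 73.9% held *Muc2* and 44.9% held *Clca1*. Of the 22 producing *Zg16*, 95.5% held *Muc2* and 68.2% *Spink4*. Of the 71 producing *Spink4*, 63.4% held *Muc2* and 25.4% *Zg16*, so the genes did not form a single order of inclusion. The unlike limits and the unlike levels of the genes enter these shares. These shares come from the cells of both genotypes, which share their libraries and their depth. They also pool both sets of runs. In runs without *Sis*, where *Clca1* was at 0, there were 5 WT and 4 ROBO cells producing *Muc2*, and 4 and 10 producing *Fcgbp*.

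Across goblet-type cells, counts of *Muc2* and *Fcgbp* per 10000 had a Spearman rho of 0.59 in 56 WT and 0.71 in 52 ROBO cells, and of 0.82 in the 78 cells of runs with *Sis*. *Agr2* and *Tff3* were at 0.72 and 0.79, and *Clca1* and *Zg16* at 0.72 and 0.59. *Spink4* went with *Agr2*, at 0.44 and 0.46, and hardly with *Clca1*, at 0.03 and -0.26, or *Zg16*, at -0.09 and -0.36. In the 5 ROBO cells richest in *Zg16*, *Spink4* was at 11, 2, 10, 0 and 0 UMIs, and in the richest WT cell at 0, while *Muc2* was at 117 to 191 and 64. The cell richest in the 7 genes in WT was of another kind, with 375 UMIs of *Spink4*, 12 of *Zg16* and 507 of the Paneth list. Correlations here are descriptions over cells that share libraries, and the choice of cells by these same genes shapes them.

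Goblet-type cells with at least 20 UMIs of the 13 Paneth genes numbered 13 in WT and 6 in ROBO. In WT, *Spink4* was at 388 per 10000 in these and at 76.0 in the other 43 cells. In ROBO it was at 236 in these and at 36.2 in the other 46. *Zg16* went the other way, at 7.44 against 78.8 in WT and 0.666 against 419 in ROBO, and so did *Clca1*, at 3.72 against 24.0 and 2.66 against 63.3. *Tff3* was at 185 and 205 in WT and 99.9 and 173 in ROBO. Among cells under that limit *Spink4* was thus still higher in WT and *Zg16* and *Clca1* still higher in ROBO. The WT cell with 1531 UMIs of the Paneth list passed the goblet rule on *Agr2*, *Spink4* and *Tff3*. It held 1 UMI of *Muc2* and 0 of *Fcgbp*, *Clca1* and *Zg16*. Of the 13 WT cells 6 came from runs with *Sis*, and of the 6 ROBO cells 2 did; the part of Paneth RNA in the *Spink4* ratio was not tested beyond these values.

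**Figure D4:**
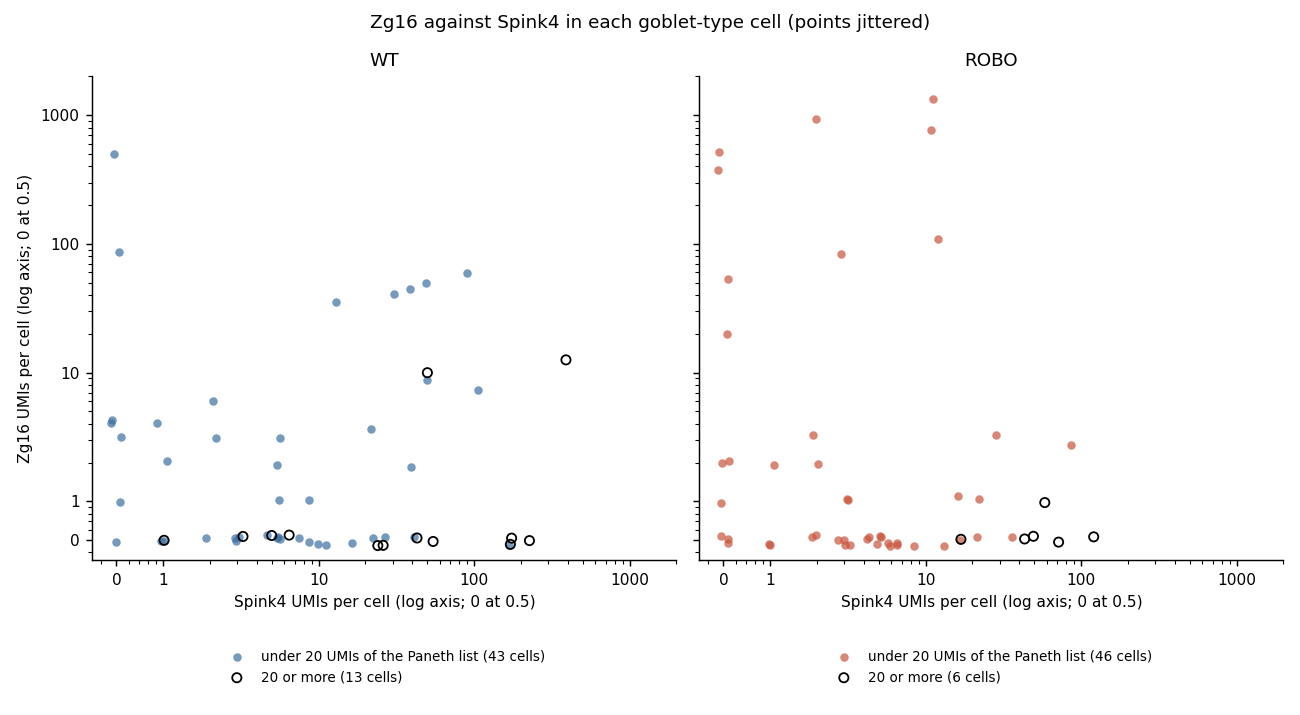
UMIs of *Zg16* against UMIs of *Spink4* in each goblet-type cell of WT (left, 56 cells) and ROBO (right, 52 cells), both on log axes with 0 drawn at 0.5 and points jittered; open circles are the 13 WT and 6 ROBO cells with at least 20 UMIs of the Paneth list. The cells with at least 397 *Zg16* UMIs, 5 in ROBO and 1 in WT, hold at most 11 of *Spink4*, and the open circles lie at or below 12 of *Zg16*.

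By class, the 7 goblet genes were highest in the 120 secretory-like cells, and their order there differed between the genotypes. In the 60 WT cells it was *Tff3* (222 per 10000), *Spink4* (160), *Fcgbp* (123), *Agr2* (88.3), *Zg16* (69.7), *Muc2* (62.3) and *Clca1* (20.2). In the 60 ROBO cells it was *Zg16* (370, of which the 5 cells above hold most), *Tff3* (164), *Fcgbp* (129), *Muc2* (90.5), *Spink4* (66.6), *Clca1* (54.7) and *Agr2* (54.3). Counting intervals overlapped for *Zg16* and *Muc2* in WT and for *Clca1* and *Agr2* in ROBO. Over both genotypes the levels were 36.9 for *Clca1* to 215 for *Zg16*. Bottom enterocyte-like cells came next for *Muc2* (0.997) and *Fcgbp* (2.06), and without the goblet-type cells among them these fell to 0.458 and 0.476. *Tff3* was also found in the 30 enteroendocrine-like cells, none of them goblet-type, at 6.64 per 10000 (4.54 to 9.37), with 3 producing cells; immune-like cells had 1.77 (1.01 to 2.87). *Muc13* had the opposite order: it was at 24.2 (23.2 to 25.2) in middle enterocyte-like cells, 22.8 (21.1 to 24.5) in top enterocyte-like cells, 24.0 in an unnamed cluster led by the immediate early genes *Fosb* and *Atf3* and the chemokine *Cxcl10*, 13.8 in secretory-like cells, 12.3 in bottom enterocyte-like, 11.8 in transiently amplifying-like and 9.52 in stem cell-like cells, and 1.88 (1.09 to 3.01) in immune-like cells. The classes were built without the 8 genes.

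**Figure D5:**
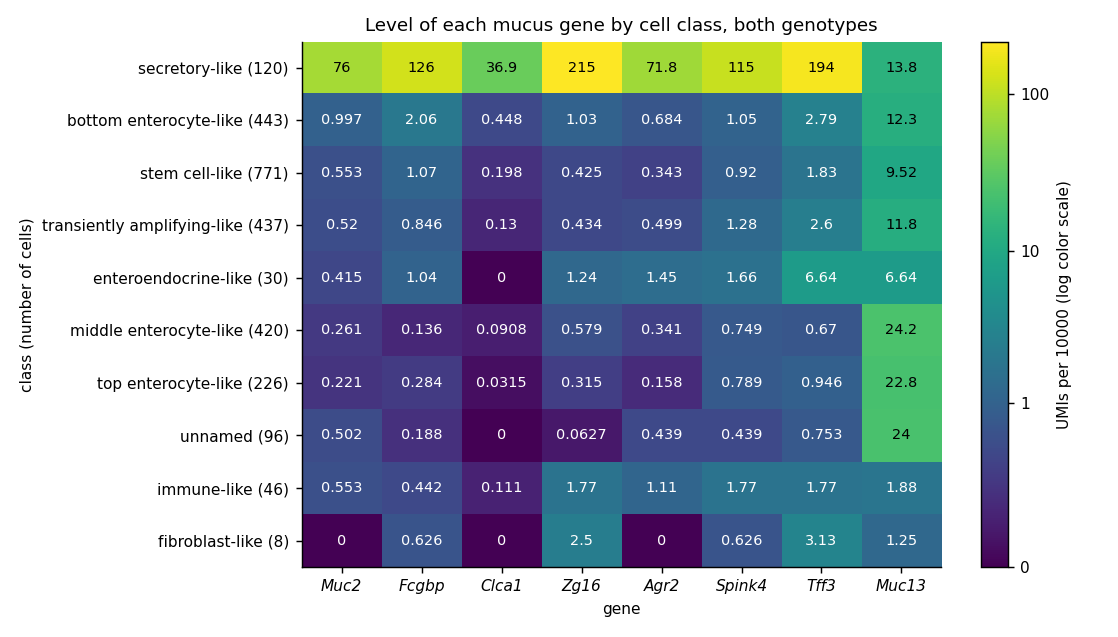
Level of each gene, in UMIs per 10000 UMIs of the class with cells of both genotypes summed, in the 10 classes (number of cells in brackets), on a log color scale with the value printed. The 7 goblet genes are at 36.9 to 215 in the secretory-like row and mostly under 3 elsewhere, with *Tff3* at 6.64 in enteroendocrine-like cells, while *Muc13* is brightest in middle and top enterocyte-like cells and the unnamed cluster.

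Goblet-type cells held 89.1% of the UMIs of the 7 genes in WT and 90.8% in ROBO. In cells that were not goblet-type and had under 5 UMIs of a gene, the summed level of the 7 genes differed between the genotypes by a log2 ratio of 0.02 (-0.12 to 0.15). Immune-like cells, which should lack these genes, were taken as a reference for background. The source of the UMIs in them was not tested. In runs with *Sis*, 23 immune-like cells had *Zg16* at 2.76 per 10000 (1.51 to 4.64) and *Tff3* at 2.17 (1.08 to 3.88). *Spink4* was at 1.18 and *Agr2* at 1.38, and *Muc2* and *Fcgbp* rested on 1 and 2 UMIs, below the level of 0.592 that a count of 0 allows. In the same runs the other cells, without goblet-type cells and without cells of 5 or more UMIs of the gene, had *Zg16* at 1.03, *Tff3* at 1.89, *Spink4* at 0.894 and *Agr2* at 0.610. That limit on UMIs makes these levels low by construction, so they are not compared with the immune-like cells. With no such limit, the 43 secretory-like cells that were not goblet-type had *Tff3* at 21.8, *Spink4* at 17.3 and *Muc2* at 4.47 per 10000, and enteroendocrine-like cells had *Tff3* at 6.64. Immune-like cells that were not goblet-type had 1.46, 1.68 and 0.448 for these 3 genes, also with no limit. In the other runs *Clca1* was at 0 and *Zg16* at 0.0190 in non-goblet cells, with 22 immune-like cells at 0 for both, which allows up to 0.777 per 10000.

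The make-up of the low counts was set beside that of goblet-type cells of the same runs. In ROBO runs with *Sis*, *Zg16* was 24.2% of the UMIs of the 7 genes in other cells and 42% in goblet-type cells, and *Spink4* was 13.3 and 4.14%. In the WT runs with *Sis* the shares of *Zg16* were 14.2 and 9.89%, and of *Spink4* 18.5 and 20.4%. Over all runs, the log2 ratio of ROBO over WT outside goblet-type cells was 0.80 for *Zg16* (0.42 to 1.19) and 0.59 for *Muc2* (0.13 to 1.05). It was 0.70 for *Clca1*, 0.10 for *Muc13*, -0.14 for *Spink4*, -0.15 for *Agr2*, -0.24 for *Tff3* and -0.43 for *Fcgbp*, with intervals that covered both signs. For *Muc2* it was 0.32 (-0.29 to 0.93) in runs with *Sis* and 1.05 (0.31 to 1.82) in the others, where its ratio in goblet-type cells was negative.

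Other genes of the goblet programme were read from fixed lists of 82 genes, of which 74 are in the matrices. Of 49 with at least 50 UMIs, 32 were at least 2-fold higher in goblet-type than in all other cells, against 5.3% of 9071 genes, and 5 at least 2-fold lower, against 16.6%. The limit of 50 UMIs counts goblet-type and other cells together, so some genes passed it only through their goblet-type UMIs. Examples are *Tpsg1*, with 50 UMIs in goblet-type and 12 in other cells, *Gcnt3* (68 and 18), *Spdef* (80 and 20) and *Atoh1* (52 and 28). The counts of higher genes are therefore descriptions and no independent support. Their median log2 ratio was 1.92, and that of all genes -0.19. Of 8 transcription factors 7 were higher, with *Spdef* at 6.26, *Atoh1*, the secretory fate factor, at 5.15, *Creb3l1* at 4.80 and *Foxa3* at 3.29 on the log2 scale. Of 8 other secreted products 7 were higher, with the chemokine genes *Ccl6* (6.65) and *Ccl9* (5.84), the protease gene *Tpsg1* (6.32), the ribonuclease gene *Ang4* (5.19), the lectin gene *Itln1* (4.89), *Reg4* (4.00) and *Guca2a* (3.17), while the uroguanylin gene *Guca2b* was at -0.48. Of 13 genes of folding in the endoplasmic reticulum 9 were higher and none lower, with the stress sensor *Ern2* at 5.00, *Pdia5* at 3.86 and the chaperone *Hspa5* at 1.18. Of 13 glycosylation genes 6 were higher and 3 lower, with *Gcnt3*, which branches mucin glycans, at 6.18 and *Galnt12* at 3.98. Of 6 genes of granule release 3 were higher, with *Hepacam2* at 4.99 and *Rab3d* at 3.45, and *Nlrp6* was lower at -1.17. The 1 other mucin with enough UMIs was lower, at -1.51.

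Between the genotypes, 26 of these genes had at least 50 UMIs in goblet-type cells. None was at least 2-fold higher in ROBO, against 1.45% of 828 genes, and 2 were at least 2-fold lower, against 4.35%. They were *Ang4* at -2.78 (97 against 12 UMIs) and *Itln1* at -1.05 (948 against 389), both of which are also on the Paneth list. Of the 6 factors compared, *Klf4* was at 0.58 (0.03 to 1.14), *Spdef* at 0.45 (-0.22 to 1.13), *Atoh1* at 0.12, *Creb3l1* at 0.06, *Foxa3* at -0.03 and *Xbp1* at -0.06. Among all genes with at least 100 UMIs in goblet-type cells the highest ratios were those of *Zg16* and *Clca1*, followed by *Cps1* (0.93), *Cnbp* (0.90) and *Txnip* (0.89). Among the lowest were those of *Gm15299*, *Mptx2*, *Defa21* and *Mptx1*, at -7.00 to -3.41. *Defa21* is a Paneth defensin gene, and UMIs of these genes sat in few cells: the highest WT cell held 122 of 150 UMIs of *Gm15299*, 106 of 149 of *Mptx2* and 188 of 602 of *Mptx1*.

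The genes outside the 8 whose pattern was most like that of the 7 were found by Pearson's r, over all 2597 cells, of the log level with the mean log level of the 7. They were *Ccl6* (r = 0.571), *Atp2a3*, a calcium pump of the endoplasmic reticulum (0.481), *Hepacam2* (0.477), *Gcnt3* (0.473), *Spdef* (0.471), *Clps* (0.467), *Selm* (0.465), *Rap1gap* (0.454), *Bace2* (0.450) and *Mptx1* (0.447). Goblet-type cells held 84.0% of the *Ccl6* UMIs, 80.0% of those of *Spdef* and 79.1% of those of *Gcnt3*. *Ccl6* was first in ROBO and in runs with *Sis* and rank 3 in WT. *Mptx1* was first in WT, at 0.570, and rank 48 in ROBO, at 0.239. *Muc13* had an r of 0.0154. The cells share library and depth, and these values are a ranking only.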

How the data were processed

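Crypt cells were captured in ddSEQ droplets and sequenced with a 3′ kit. The deposited values are raw UMI counts, made by the authors with BaseSpace, with genes in rows, cells in columns and 1 file for each genotype. The labels name mm10 and GRCm38; the aligner and the rule for calling cells are not given in the sources used here. Depth was 463 to 13756 UMIs per cell, which limits the detection of low genes. No mitochondrial gene is listed.

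From the counts, the UMIs of each set of cells were added up and scaled to 10000 UMIs of that set. Intervals were exact Clopper-Pearson for shares, Newcombe for differences of shares, exact Poisson for sums and conditional exact for ratios, in scipy 1.17.1. A ratio was called at 2-fold with at least 50 UMIs, with no p-value. For a count of 0 the limit is that of 3 counts. Cells were clustered in Seurat 5.3.0 (R 4.3.3) after log normalization and regression of S and G2M scores, with 20 components, 1993 variable genes that left out the members, and a resolution of 0.8; a class name needed at least 3 markers raised 1.5-fold in at least 10% of cells. Scrublet in scanpy 1.11.5 called 2 WT and 4 ROBO doublets, which were kept except in an alternative. Cells were thinned to 912 UMIs for depth-matched shares. In simulated data with 200 of 9071 genes changed over all cells, 95.7% of intervals held the true ratio. Of the changed genes, 99.5% had the right sign. Both values concern counting error in the summed UMIs, which is all that the intervals cover. They are no check of the intervals against the spread between cells or between runs.

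The members, lists and rules were chosen with earlier results of these data known, and the runs of columns and the limit of 20 Paneth UMIs after seeing the data. Named are the 8 members, the 10 genes most like them among 9039 with at least 50 UMIs in at least 20 cells, the 5 genes with the largest ratio in each direction among those with at least 100 UMIs in goblet-type cells (1 of them is not reported here), and list members with at least 20 UMIs there. The alternatives covered the goblet rule, the thinning, a minimum of 500 genes per cell, doublets, scaling without the members, equal weight of cells, the top cells, the producing threshold, the clustering and the runs.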

Additional observations from a re-analysis of the deposited data

How the results depend on the processing

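The difference in the share of goblet-type cells, 0.00903 points, lay between -0.446 with 5 UMIs of 3 genes and 1.35 in runs with *Sis* when the goblet rule, the depth, the doublets or the set of runs changed, within its main interval, and was 1.62 without WT run 5, outside it. The share itself moved from 4.15% in WT to 7.24% in runs with *Sis* and 1.82% in the others. The summed log2 ratio of the 7 goblet genes moved more. In goblet-type cells it was 0.45, and 0.51 with 2 genes in the rule, 0.68 with 4, 0.78 with 5 UMIs, 0.66 without the Paneth-rich cells, 0.55 in runs with *Sis*, -0.026 in the other runs, 0.15 with equal weight of cells, 0.31 without the top cell and -0.30 without the top 5. Over all cells it was 0.33, and 0.39 with at least 500 genes per cell, 0.49 in runs with *Sis*, 0.080 in the other runs, 0.081 with equal weight, 0.22 without the top cell and -0.21 without the top 5. Outside goblet-type cells it was 0.02, and 0.18 in runs with *Sis*, -0.15 in the others and -0.41 with equal weight. The difference in the share of cells that produce any of the 7 genes was -0.0394 points, and -1.87 with a limit of 20 UMIs per 10000. Goblet-type cells in the secretory-like cluster numbered 77, and 76 to 84 under other clusterings. Among single genes, *Spink4* reversed in runs without *Sis* (0.66 over all cells, 0.52 in goblet-type cells) and without WT run 5 (0.94 and 0.50; over all single runs left out -1.31 to 0.94 and -1.61 to 0.50), and *Zg16* in runs without *Sis* (-1.98). *Muc2* changed sign there too (-1.07 in goblet-type cells) and without the top 5 cells, *Agr2* and *Tff3* without WT run 5 (0.84 and 1.46 over all cells), and *Fcgbp* in 7 of 21 alternatives over all cells, with values of -0.42 to 2.10. *Clca1* kept its sign in all 20. Leaving out 1 run at a time gave -0.697 to 1.62 points for the share, 0.17 to 2.02 for the ratio in goblet-type cells, -0.090 to 2.21 over all cells and -0.28 to 0.24 outside; the highest values were without WT run 5, and without ROBO run 6 or 8 the ratio over all cells was -0.036 and -0.090. Alternatives by run and without Paneth-rich cells were chosen after seeing the data, and causes were not tested. Leaving out WT run 5 also left WT run 1 as the only WT run with *Sis*. No paired analysis was possible because the columns carry no sample number and each genotype is 1 pooled sample. Depth and the number of goblet-type cells, 56 and 52, limit what can be seen: the interval of the share difference reaches 1.58 points.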

Other observations

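The Paneth list varied from run to run without following *Sis*. Its summed level was 2.66 and 32.5 per 10000 in the WT runs with *Sis* and 2.67, 12.7 and 11.9 in the ROBO runs with *Sis*, and 5.20 to 54.8 in the others, highest in ROBO run 3. That run and WT run 5 were also those with the most *Spink4*, at 9.87 and 19.4 per 10000. In runs without *Sis*, *Spink4* was at 1.32 to 1.33 where the Paneth list was at 5.20 to 9.25. It was at 2.17 to 9.87 where the list was at 13.2 to 54.8. The latter include WT runs 2 and 3, with the list at 37.2 and 37.3 and *Spink4* at 2.20 and 3.00. In runs with *Sis*, *Spink4* was at 1.73 and 19.4 in WT and at 2.65, 3.56 and 8.93 in ROBO, in the order given above. A link between them was not tested.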
